A study of Mus musculus with 8 samples.

Results

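Growth factor genes of adipose tissue macrophages were followed across adhesion-related macrophages (ARMs) and stromal macrophages (SMs, labelled NARM by the submitters) of lean and obese mice. They were the 10 genes Igf1, Pdgfa, Pdgfb, Pdgfc, Vegfa, Vegfb, Tgfb1, Areg, Ereg and Csf1, taken by symbol from the 18040 genes listed in the table of at least 1 diet. All 10 were found. The macrophages came from the epididymal white adipose tissue (eWAT) of male wild-type C57BL/6J mice. These were kept on a normal diet (ND) or given a high-fat diet (HFD, 60% fat) for 8 weeks from 6 weeks of age. After collagenase digestion, ARMs were recovered with the floating fat cells, which were broken by vortexing with beads, and SMs from the pelleted stromal vascular cells. Both were then sorted by FACS as CD45+ CD11b+ F4/80+ cells, so ARMs and SMs differ in how they were released as well as in where they sat. Each of the 4 groups had 2 RNA-seq libraries, and each library pooled 6 HFD or 10 ND mice. The labels do not say whether the 2 pools of a group held different mice, so p-values measure the spread between pools, part of which may be technical. Estimated counts summed to 18415520 and 18288775 in HFD ARMs, 19040133 and 18992793 in HFD SMs, 16319038 and 14508824 in ND ARMs, and 14861075 and 15833762 in ND SMs.

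Macrophages of fat tissue release growth factors that act on vessels, stromal progenitors and other macrophages. VEGF-A stimulates endothelial growth through Kdr, and VEGF-B binds Flt1 instead. PDGF-A, PDGF-B and PDGF-C are ligands of the receptors Pdgfra and Pdgfrb on fibroblasts, progenitors and pericytes. Amphiregulin (Areg) and epiregulin (Ereg) activate the EGF receptor, colony-stimulating factor (Csf1) keeps macrophages alive through Csf1r, and TGF-beta and IGF-1 act on matrix and cell growth. All of these act outside the cell that makes them, so that the amount of RNA in the macrophage is only the first step of the signal.

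Macrophage markers had like sums in ARMs and SMs of each diet, although every HFD sum lay below every ND sum and single markers differed between the diets. The 12 markers summed to 15980 and 15260 FPKM (counts scaled by gene length and library size) in HFD ARMs, 16580 and 15930 in HFD SMs, 17590 and 17950 in ND ARMs, and 18370 and 17810 in ND SMs. Between ARMs and SMs 0 of the 12 was called in either diet, where 4.75% (HFD) and 3.68% (ND) of all genes tested were. Lyz2 was the most abundant of them, and none was at 0. ARMs also held more RNA of genes that mark several other cell types, fat cells among them, and those values are given with the results below.

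In the reference annotation of build GRCm38.p6, which shares its coordinates with the mm10 build of the submitters' processing notes, Vegfa lies at chr17:46016993-46032377 and Vegfb at chr19:6982472-6987651. The PDGF genes are on 3 chromosomes, with Pdgfa at chr5:138976014-139000792, Pdgfb at chr15:79995865-80024614 and Pdgfc at chr3:81036416-81214040. Areg (chr5:91139599-91148432) and Ereg (chr5:91074617-91093649) are neighbours. Csf1 lies at chr3:107741048-107760469, Tgfb1 at chr7:25687002-25705077 and Igf1 at chr10:87858265-87937047. All 10 are annotated as protein coding. Another annotated gene overlaps Igf1 (Igf1os), Pdgfb (Mir7213), Ereg (Gm19610) and Csf1 (Gm40121). None of these overlapping genes is listed for either diet. Whether the counting used strand is not given in the sources used here, so reads of such a pair cannot be told apart.

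Promoter sequences were available for 8 of the 10 genes, as 10 stretches of 300 bases that run from 250 bases before the annotated start to 50 after it (RefSeq, build GRCm38.p6). They are shown for the 4 genes that were higher in ND ARMs (Areg, Vegfa, Csf1 and Pdgfa) and for Pdgfc, a family member with a lower level in HFD ARMs. Pdgfb and Ereg are named only. Each runs 5′ to 3′ on the gene's strand, and capitals mark a match, on either strand, to TGANTCA (AP-1), TGACGTCA (CRE), ACGTG (hypoxia response core) or GCGTGGG (EGR).
Areg, plus strand, chr5:91139349-91139648: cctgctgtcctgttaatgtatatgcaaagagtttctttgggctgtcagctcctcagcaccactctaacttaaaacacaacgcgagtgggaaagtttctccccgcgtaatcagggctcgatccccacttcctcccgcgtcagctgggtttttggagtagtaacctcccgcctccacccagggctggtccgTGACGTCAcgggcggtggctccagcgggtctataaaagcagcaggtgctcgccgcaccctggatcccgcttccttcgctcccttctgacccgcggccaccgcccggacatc
Vegfa, minus strand, chr17:46032328-46032627: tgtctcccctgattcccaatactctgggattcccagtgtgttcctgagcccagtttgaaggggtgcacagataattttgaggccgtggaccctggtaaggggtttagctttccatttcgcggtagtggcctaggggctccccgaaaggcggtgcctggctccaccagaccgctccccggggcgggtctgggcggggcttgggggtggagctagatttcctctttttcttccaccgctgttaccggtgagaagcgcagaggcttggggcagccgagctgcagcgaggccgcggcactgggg
Vegfa, inner start, minus strand, chr17:46025114-46025413: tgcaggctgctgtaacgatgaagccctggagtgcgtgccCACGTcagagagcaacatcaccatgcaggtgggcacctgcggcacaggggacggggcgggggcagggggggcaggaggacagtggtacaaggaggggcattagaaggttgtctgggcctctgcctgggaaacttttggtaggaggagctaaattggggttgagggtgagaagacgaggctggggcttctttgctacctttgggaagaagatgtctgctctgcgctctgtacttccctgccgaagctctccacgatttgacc
Csf1, minus strand, chr3:107760420-107760719: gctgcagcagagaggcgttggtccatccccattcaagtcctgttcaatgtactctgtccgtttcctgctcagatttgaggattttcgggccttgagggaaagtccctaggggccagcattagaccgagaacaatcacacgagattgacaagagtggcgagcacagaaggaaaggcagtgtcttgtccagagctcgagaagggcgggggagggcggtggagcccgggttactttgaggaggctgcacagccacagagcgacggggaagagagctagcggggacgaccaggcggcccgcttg
Pdgfa, minus strand, chr5:138994895-138995194: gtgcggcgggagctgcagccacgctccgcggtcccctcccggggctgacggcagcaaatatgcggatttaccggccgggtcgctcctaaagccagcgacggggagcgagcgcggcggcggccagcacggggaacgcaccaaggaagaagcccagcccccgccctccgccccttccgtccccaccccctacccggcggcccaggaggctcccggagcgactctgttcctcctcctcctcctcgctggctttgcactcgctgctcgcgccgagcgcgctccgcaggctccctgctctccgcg
Pdgfc, plus strand, chr3:81036166-81036465: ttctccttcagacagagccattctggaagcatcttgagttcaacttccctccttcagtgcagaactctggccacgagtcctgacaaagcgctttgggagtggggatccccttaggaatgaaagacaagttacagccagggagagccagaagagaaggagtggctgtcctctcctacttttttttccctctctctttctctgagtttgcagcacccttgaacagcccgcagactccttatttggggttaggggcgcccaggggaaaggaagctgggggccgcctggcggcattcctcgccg

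The Areg promoter held the full CRE letters, beginning 61 bases before its start. The CRE was present in 1.79% of all 32851 promoters of the table. The inner Vegfa start had ACGTG, read on the other strand and 211 bases before the start, which 19.6% of promoters held. Neither the outer Vegfa start nor Csf1, Pdgfc or either of the Pdgfa promoters held any of the 4 motifs in this window. Of those not printed, Igf1 had an AP-1 match (7.81% of promoters) and Tgfb1 an EGR match (5.04% of promoters), and Vegfb had none. No match overlapped another. Among the 4 genes higher in ND ARMs, only Areg and the inner Vegfa start had a match, each to another motif. A match describes the letters and is not a site in use.

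Testing ARMs against SMs diet by diet asks whether macrophages held to fat cells carry another set of growth factor RNAs than those of the stroma. A gene counts as called when edgeR's quasi-likelihood test gave an adjusted p under 0.05 and the fold change exceeded 1.5. The 10 genes, and the gene lists further on, were chosen with earlier results of these data known. The shares over all genes are therefore a scale for the counts and not a test of an excess. In HFD mice, 2 of the 9 genes that passed the filter on low counts were called, where 4.75% of all 13337 genes tested were. Both, Vegfa and Pdgfb, were higher in ARMs, where 4.46% of genes were. In ND mice, 4 of 10 were called, where 3.68% of 12441 genes were. These were Vegfa, Pdgfa, Areg and Csf1, again all higher in ARMs, where 3.55% of genes were. Neither edgeR nor DESeq2 called any lower in either diet, where the shares of genes called lower by edgeR were 0.292% (HFD) and 0.129% (ND). At an unadjusted p under 0.05, edgeR passed 6 of 9 in HFD mice (23.2% of all genes) and 6 of 10 in ND mice (14.9%), of which Pdgfc in HFD mice was the 1 lower gene. Vegfa was the 1 gene called in both diets. Both ARM libraries lay above both SM libraries for 7 of 9 genes in HFD mice (26.2% of all genes) and for 7 of 10 in ND mice (21.2%), counted on CPM, which are counts scaled by library size and TMM. Both lay below for Pdgfc in HFD mice (26.5% of all genes) and for 0 of 10 in ND mice (22.8%). At any fold change, 4 of 9 passed the adjusted p in HFD mice (9.55% of all genes), with Pdgfc and Csf1 short of 1.5-fold, and the same 4 of 10 as were called in ND mice (4.73%).

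**Figure D1:**
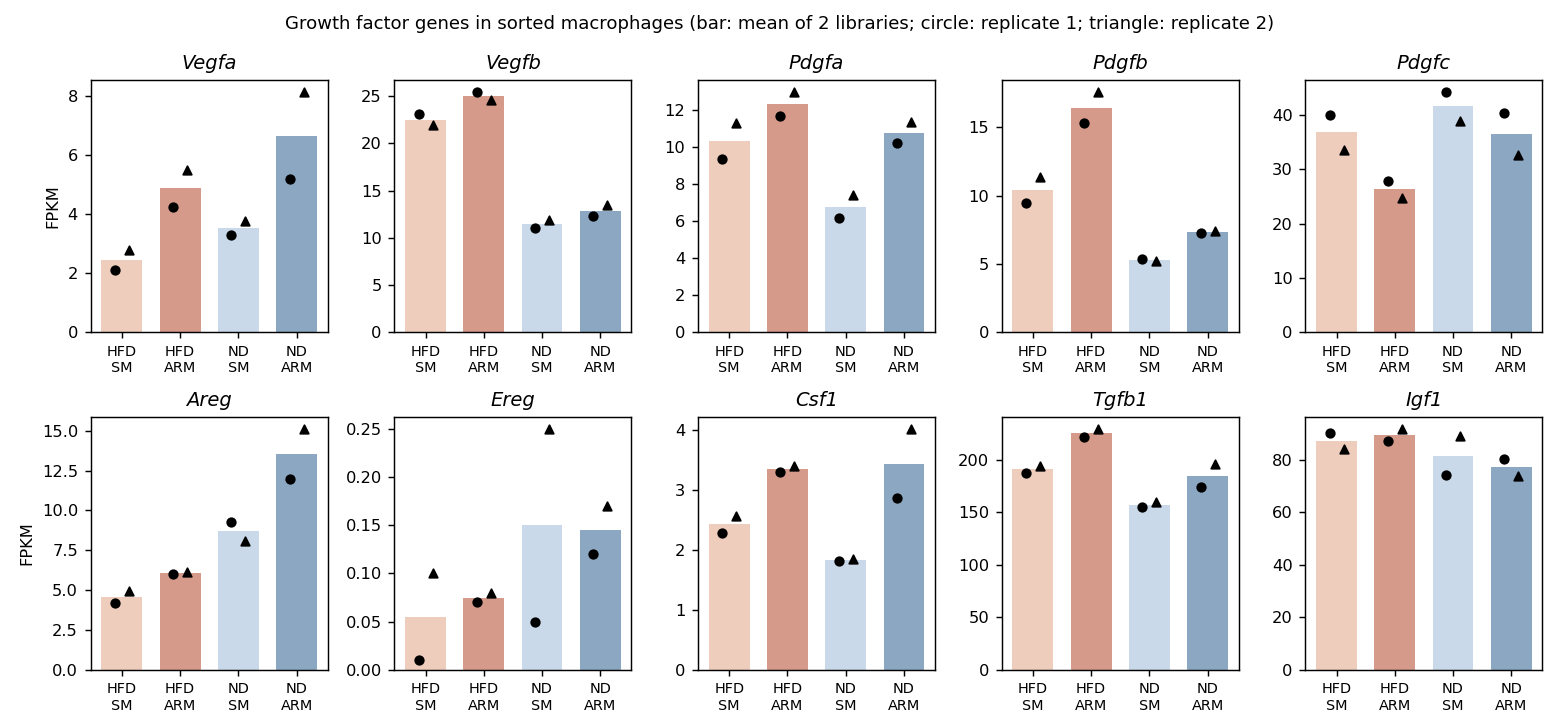
FPKM of the 10 growth factor genes in each of the 8 libraries, 1 panel a gene and 1 bar a group; the bar is the mean of 2 libraries, the circle replicate 1 and the triangle replicate 2, with a separate axis for each gene. Vegfa was higher in both ARM libraries than in both SM libraries of each diet, while Igf1 overlapped.

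Vegfa (Entrez 22339), the main inducer of vessel growth, was about 2-fold higher in ARMs of both diets. In HFD mice it stood at 4.26 and 5.51 FPKM in ARMs against 2.12 and 2.81 in SMs. In ND mice it stood at 5.19 and 8.16 FPKM in ARMs against 3.29 and 3.77 in SMs. The groups did not overlap in either diet, and ND ARM replicate 2 was the highest of the 8 libraries. The log2 fold change was 0.98 in HFD mice (SE 0.16, edgeR adjusted p = 0.0044) and 0.93 in ND mice (SE 0.19, edgeR adjusted p = 0.00892). The call was lost without HFD ARM replicate 2, at 0.79, and without ND ARM replicate 2, at 0.56. The HFD call was also lost with no filter on low counts, in edgeR (0.98) and in limma (0.76). The ND call was also lost with limma on log2(FPKM + 1), at 0.74, and on log2(FPKM + 0.1), at 0.87. In bulk RNA, fewer cells of a type and less RNA per cell cannot be told apart, here or in any result that follows.

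Vegfb (Entrez 22340), of the same family, stayed close to 1-fold. It stood at 25.5 and 24.6 FPKM in HFD ARMs, 23.1 and 21.9 in HFD SMs, 12.3 and 13.5 in ND ARMs, and 11 and 11.9 in ND SMs. The ARM pair exceeded the SM pair in each diet, by little. The log2 fold change was 0.13 in HFD mice (SE 0.08, edgeR adjusted p = 0.351) and 0.17 in ND mice (SE 0.15, edgeR adjusted p = 0.689), so neither passed the test.

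The 3 PDGF genes did not share a direction. Pdgfb (Entrez 18591), whose product binds both PDGF receptors and recruits pericytes, stood at 15.3 and 17.6 FPKM in HFD ARMs against 9.47 and 11.4 in HFD SMs, and at 7.29 and 7.41 in ND ARMs against 5.35 and 5.20 in ND SMs. The ARM and SM libraries were apart in both diets. Its log2 fold change was 0.64 in HFD mice (SE 0.10, edgeR adjusted p = 0.00254). In ND mice it was 0.50 (SE 0.14, edgeR adjusted p = 0.0521), just outside the threshold for p and under 1.5-fold. In HFD mice the call was lost without ARM replicate 2, at 0.57, without SM replicate 1, at 0.51, and with no filter on low counts, in edgeR (0.64) and in limma (0.61).

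Pdgfa (Entrez 18590), a ligand of Pdgfra, was called in ND mice. It stood at 10.2 and 11.4 FPKM in ND ARMs against 6.18 and 7.42 in ND SMs, and at 11.7 and 13.0 in HFD ARMs against 9.36 and 11.3 in HFD SMs. The ND groups were well apart, and the HFD groups nearly met. Its test gave a log2 fold change of 0.68 in ND mice (SE 0.17, edgeR adjusted p = 0.0285) and 0.23 in HFD mice (SE 0.11, edgeR adjusted p = 0.25). The ND call was lost without ARM replicate 2, at 0.54, without SM replicate 1, at 0.55, and with DESeq2, at 0.68.

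Pdgfc (Entrez 54635), which is released as a latent ligand and activated by proteases, went the other way. It stood at 27.8 and 24.8 FPKM in HFD ARMs against 40.0 and 33.6 in HFD SMs, and at 40.4 and 32.6 in ND ARMs against 44.3 and 39.0 in ND SMs. The HFD ARM libraries were the lowest of the 8 and did not overlap the SMs, whereas the ND groups overlapped. In HFD mice it fell by 0.51 on the log2 scale (SE 0.08, edgeR adjusted p = 0.00267), which passes the test but not the 1.5-fold change. Without HFD ARM replicate 1 it was called, at -0.60. It did not pass the test without HFD ARM replicate 2, at -0.43. Nor did it pass with no filter on low counts, in edgeR (-0.51) and in limma (-0.47). In ND mice the log2 fold change was -0.18 (SE 0.11, edgeR adjusted p = 0.505).

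Of the 2 EGF receptor ligands, Areg was measurable and Ereg barely so. Areg (Entrez 11839) stood at 12 and 15.1 FPKM in ND ARMs against 9.27 and 8.10 in ND SMs, and at 5.98 and 6.11 in HFD ARMs against 4.21 and 4.96 in HFD SMs. The ARM libraries were above the SM libraries in both diets, and every HFD library was below every ND library. The log2 fold change was 0.64 in ND mice (SE 0.17, edgeR adjusted p = 0.0444) and 0.37 in HFD mice (SE 0.16, edgeR adjusted p = 0.189). The ND call lay close to its threshold and was lost without ARM replicate 2 (0.46), SM replicate 1 (0.73) or SM replicate 2 (0.55), with DESeq2 (0.64), and with limma on log2(FPKM + 1) (0.58) or log2(FPKM + 0.1) (0.63). Ereg (Entrez 13874) had 5 and 6 counts in HFD ARMs, 1 and 8 in HFD SMs, 8 and 10 in ND ARMs, and 3 and 16 in ND SMs. Too few counts kept it out of the HFD test. In ND mice its groups overlapped, with a log2 fold change of -0.07 (SE 0.64, edgeR adjusted p = 0.981), so a difference was not detectable at this depth.

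Csf1 (Entrez 12977) stood at 2.87 and 4.02 FPKM in ND ARMs against 1.81 and 1.85 in ND SMs, and at 3.31 and 3.40 in HFD ARMs against 2.29 and 2.57 in HFD SMs. The groups were apart in both diets, and ND ARM replicate 2 was again the highest library. The log2 fold change was 0.95 in ND mice (SE 0.19, edgeR adjusted p = 0.00903), a call lost without ARM replicate 2, at 0.65, and with limma on log2(FPKM + 1), at 0.64, or on log2(FPKM + 0.1), at 0.86. In HFD mice it was 0.42 (SE 0.11, edgeR adjusted p = 0.0401), past the test but short of 1.5-fold. There Csf1 did not pass with DESeq2 (0.42), in 1 fit of all libraries (0.42), or with limma on log2(FPKM + 1) (0.35) or log2(FPKM + 0.1) (0.45). Nor did Csf1 pass with no filter on low counts, in edgeR (0.42) and in limma (0.35). Without either HFD ARM library (0.43 each) or HFD SM replicate 1 (0.34), Csf1 also did not pass. Its receptor Csf1r was far more abundant, at 831 to 1170 FPKM over the 8 libraries, and its log2 fold changes, -0.11 (HFD) and -0.04 (ND), did not pass the test.

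Tgfb1 (Entrez 21803), a regulator of matrix and inflammation, was the most abundant of the 10. It stood at 222 and 229 FPKM in HFD ARMs, 188 and 194 in HFD SMs, 174 and 195 in ND ARMs, and 155 and 159 in ND SMs. ARMs were above SMs in every library of both diets by a small margin, with log2 fold changes of 0.21 (SE 0.06, edgeR adjusted p = 0.0533) in HFD mice and 0.23 (SE 0.10, edgeR adjusted p = 0.267) in ND mice. Igf1 (Entrez 16000), a growth factor made in quantity by resident macrophages, stood at 87.2 and 91.6 FPKM in HFD ARMs, 90.3 and 84.0 in HFD SMs, 80.1 and 74.0 in ND ARMs, and 74.0 and 89.0 in ND SMs. Its groups overlapped in both diets. The log2 fold change was 0.01 (SE 0.06) in HFD mice and -0.08 (SE 0.11) in ND mice, and its sign turned in both diets with a library left out.

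**Figure D2:**
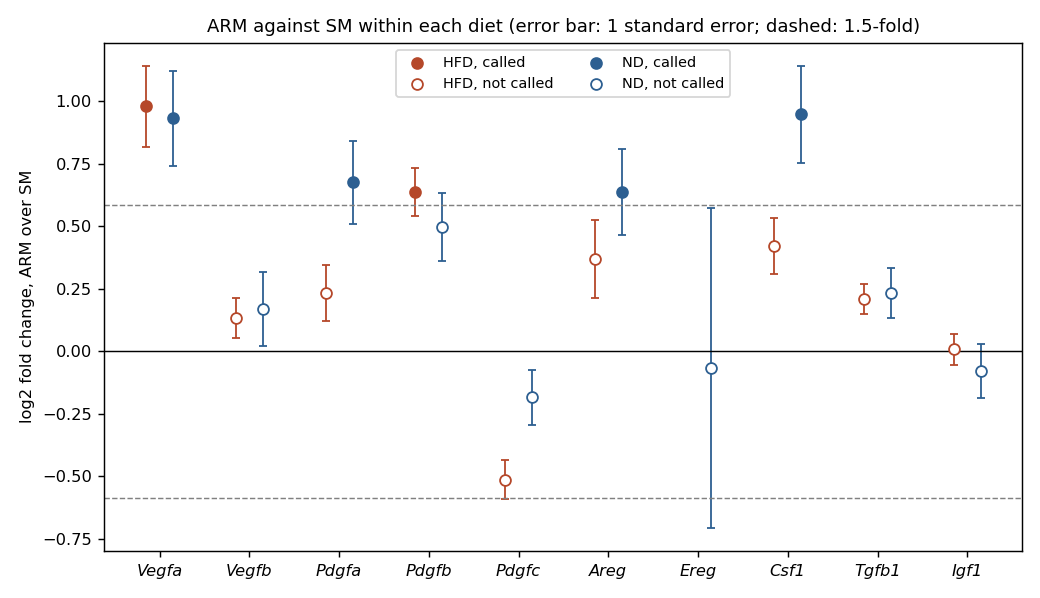
Log2 fold change of ARMs over SMs for each growth factor gene, in HFD mice (red) and ND mice (blue), with 1 standard error; filled points were called, and dashed lines mark a 1.5-fold change. Vegfa was called in both diets, and Pdgfc lay below 0 in both; Ereg was not tested in HFD mice.

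Whether the ARM against SM change itself differed between the diets was tested as an interaction over the 8 libraries. Diet went with the deposited table and with the number of mice pooled. The interaction offsets these only where they act alike on both cell types. edgeR called none of the 10 genes, where it called 0.165% of 13358 genes. However, 3 of the 10 had an unadjusted p under 0.05 in edgeR (7.61% of all genes) and 1 in DESeq2 (624 of 16134 genes). With library totals in place of TMM, edgeR had 0 of 10 under that unadjusted p (977 of 13358 genes). With any library left out it had fewer than the 3. DESeq2's own filter left an adjusted p for Igf1, Pdgfc and Tgfb1 only, none of which it called, so it gives no call either way for the other 7. The largest differences in log2 fold change among the genes with more than a few counts, HFD minus ND, were -0.54 for Csf1 (SE 0.23, edgeR adjusted p = 0.607), -0.46 for Pdgfa (SE 0.20, edgeR adjusted p = 0.62) and -0.35 for Pdgfc (SE 0.15, edgeR adjusted p = 0.60). With a library left out they ran from -0.75 to -0.24 for Csf1, -0.61 to -0.29 for Pdgfa and -0.46 to -0.18 for Pdgfc. For Vegfa the difference was 0.03 (SE 0.29). A call in 1 diet is therefore not shown to be a difference between diets for any of the 10.

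TPM, scaled by gene length, compares levels between genes. The order was led in every group by Tgfb1, Igf1 and Pdgfc, at 481, 191 and 56.1 TPM in HFD ARMs and 323, 167 and 85.3 TPM in ND SMs. Vegfb came next at 53.4 TPM in HFD ARMs, where its range overlapped that of Pdgfc, and at 23.5 TPM in ND SMs. In ND ARMs Areg, at 28.4 TPM, was level with Vegfb, at 27.0, within their spread. Csf1 and Ereg were last in every group. Ranges of neighbours also overlapped for Pdgfb and Pdgfa and for Vegfa and Csf1 in HFD SMs, and for Pdgfb and Vegfa in ND ARMs; the other neighbours in the order did not overlap. Tgfb1 was above 97.2% to 98.2% of all listed genes in every group, and Vegfa above 47.8% to 57.4%.

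The diets were deposited as separate tables that were made differently, with estimated counts that were not whole numbers for 32.3% to 32.9% of genes in the HFD libraries and 8.55% to 9.36% in the ND libraries, so diet is given as values without a test. Pdgfb averaged 16.45 FPKM in ARMs of HFD mice and 7.35 in ARMs of ND mice, with 10.4 and 5.28 in the SMs of the same diets. Vegfb averaged 25.1 against 12.9 FPKM in ARMs and 22.5 against 11.5 in SMs. Areg went the other way, with 6.05 FPKM for HFD and 13.6 for ND in ARMs, and 4.59 and 8.69 in SMs. For these 3 genes, and for Pdgfa and Tgfb1, which were higher in HFD libraries, the diets did not overlap in either cell type, in FPKM, in TPM or in CPM scaled over all 8 libraries. Such separation was common, as 17.8% of 12343 genes tested in both diets were higher in HFD libraries of both cell types on all 3 scales and 27.3% were lower. The log2 ratio of HFD over ND in ARMs was 1.16 for Pdgfb, 0.96 for Vegfb and -1.16 for Areg in FPKM, and 1.36, 1.14 and -0.99 in CPM. In SMs it was 0.98, 0.97 and -0.92 in FPKM, and 1.24, 1.20 and -0.71 in CPM. Vegfa and Csf1 overlapped between the diets in ARMs. Igf1 was higher there in HFD libraries (0.22 in FPKM, 0.26 in CPM) and Pdgfc lower (-0.47 and -0.35), without overlap on any scale. In SMs Pdgfc overlapped, and Igf1 did so in FPKM and TPM. Vegfa and Csf1 did not overlap in SMs on any scale. Vegfa was lower in HFD libraries (-0.52 in FPKM, -0.38 in CPM) and Csf1 higher (0.41 and 0.56). Of the 12343 genes, 25.3% were higher and 36.8% lower in HFD libraries of ARMs on all 3 scales. In SMs these shares were 24.2% and 34.8%.

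**Figure D3:**
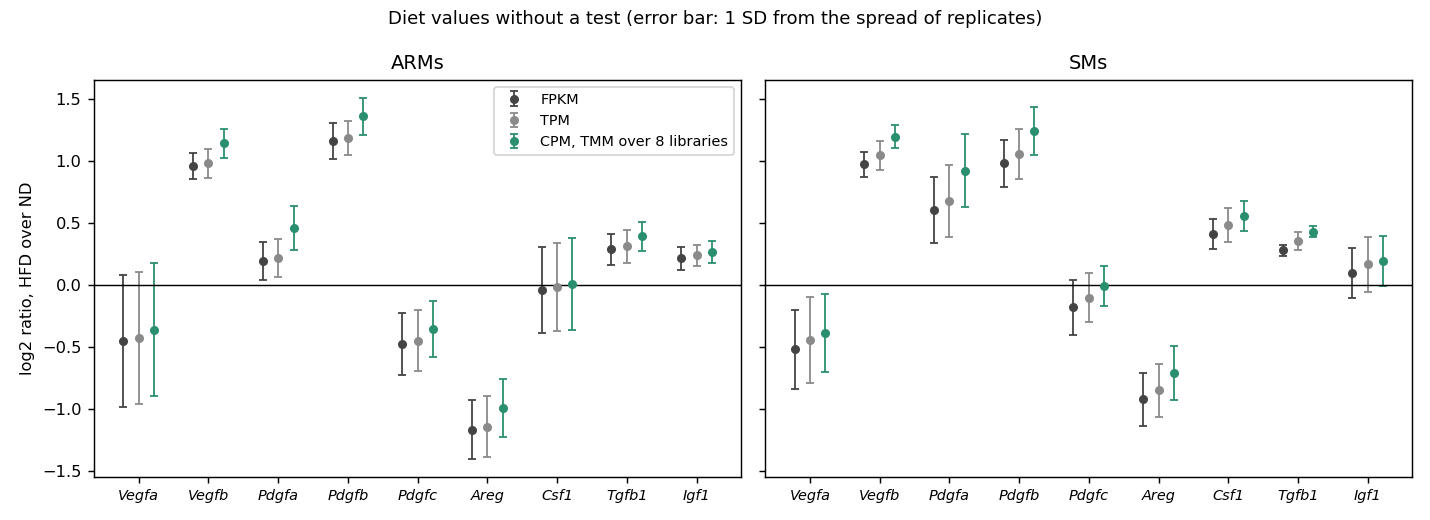
Log2 ratio of HFD over ND for 9 growth factor genes in ARMs and SMs, from FPKM, TPM and CPM, with 1 SD from the spread of replicates; Ereg is left out for its low counts. Pdgfb and Vegfb lay near 1 or above and Areg below 0 on each scale, and no test was made.

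The length of a gene implied by its counts and FPKM bears on these values, because a gene given a longer length in one table gets a lower FPKM for the same reads. HFD over ND, the implied length was 1.15 for Pdgfb, 1.13 for Vegfb, 1.13 for Areg and 1.21 for Pdgfa, against a median of 1.06 over 6977 genes of 5 FPKM or more. The CPM values, which use no length, were therefore more in favour of HFD than the FPKM values for these genes.

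The other ligands of the same families were mostly scarce. Of 18 listed, 14 passed the filter in HFD mice and 2 were called higher in ARMs (4.46% of all genes), the placental growth factor Pgf (log2 fold change 0.94) and Il34 (1.32), a second ligand of Csf1r. Both calls were lost with DESeq2, that of Il34 also without any 1 library (1.13 to 1.54) and that of Pgf without any but HFD SM replicate 2 (0.70 to 1.03). In ND mice 12 passed and 3 were called higher (3.55% of all genes), Vegfd (1.65), Tgfb3 (1.48) and Hbegf (0.81). Vegfd and Tgfb3 were lost with DESeq2, without ND ARM replicate 2 (1.18 and 1.43) and without ND SM replicate 1 (1.49 and 1.37). The list's median log2 fold change was 0.33 (HFD) and 0.45 (ND), against -0.01 and -0.02 over all genes. Hbegf, an EGF receptor ligand shed from the cell surface, was the abundant one of these. It stood at 71.1 and 70.2 FPKM in ND ARMs against 38.9 and 41.8 in ND SMs, and at 81.1 and 75.0 in HFD ARMs against 70.8 and 66.9 in HFD SMs. ND SMs alone were low, and in HFD mice its log2 fold change of 0.15 (edgeR adjusted p = 0.217) did not pass the test. The interaction test gave a difference of -0.67 for Hbegf (edgeR adjusted p = 0.0369), a call lost when any 1 of 6 libraries was left out. The 2 most abundant ligands that were not called were Nrg2, at a mean of 5.91 FPKM, and Csf3, at 3.42 FPKM.

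**Figure D4:**
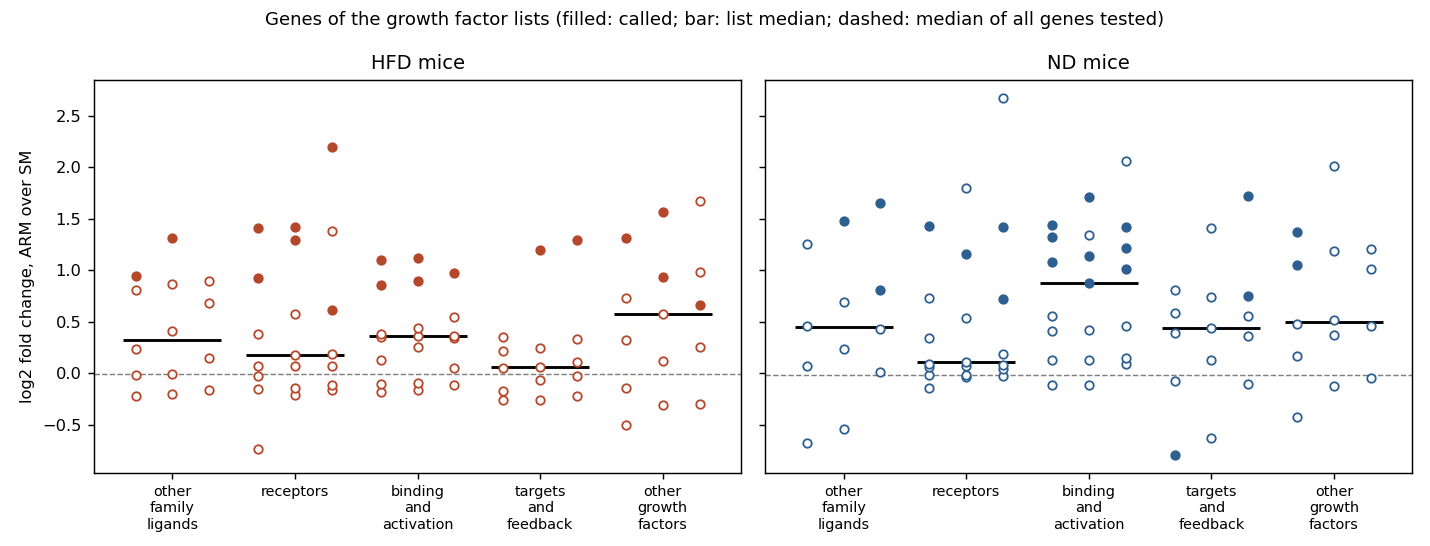
Log2 fold change of ARMs over SMs for each tested gene of 5 lists, in HFD mice (left) and ND mice (right); filled points were called, the bar is the list's median and the dashed line the median of all genes tested. The medians lay between 0.06 and 0.88, and Dusp6 in ND mice was the 1 gene called lower.

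Of 22 receptor genes, 21 were tested in each diet, and 6 were called higher in HFD ARMs (4.46% of all genes) and 4 in ND ARMs (3.55%). The list's median was 0.18 and 0.11, against -0.01 and -0.02 over all genes. Pdgfrb, the receptor for PDGF-B, was called in both diets (1.42 and 1.43), as were Igf2r (0.93 and 0.72) and the TGF-beta co-receptor Tgfbr3 (0.61 and 1.16). The VEGF receptors Flt1 (1.29), Kdr (1.42) and Flt4 (2.19) were called in HFD mice and Pdgfra (1.43) in ND mice. Among the HFD calls, Tgfbr3 was lost with DESeq2 and without either ARM library (0.59 and 0.64), Flt4 without either ARM library (2.33 and 2.05), and Flt1 without ARM replicate 1 (1.05). In ND mice Igf2r, Pdgfrb and Tgfbr3 were lost without ARM replicate 2 (0.31, 1.06 and 0.82) and in both filtered limma fits, and Igf2r without SM replicate 1 (0.63). These receptors were low, at no more than 6.29 FPKM in any library. None of those called in 1 diet differed between diets in the interaction test. Kdr, Flt4, Pdgfra and Pdgfrb are also markers of endothelial, lymphatic, fibroblast and pericyte cells in the marker lists used here, and the part of such cells in these calls was not tested. Csf1r and Csf2ra, the most abundant receptors, were not called.

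Genes that bind, store or release these factors came next. Of 26 listed, 25 were matched. In HFD ARMs 5 of 20 tested were called higher, against 4.46% of all genes (median 0.36), and in ND ARMs 9 of 21, against 3.55% of all genes (median 0.88). In both diets these were the latent TGF-beta binding protein Ltbp1 (0.90 in HFD and 1.22 in ND mice), the TGF-beta anchor Lrrc32 (1.10 and 1.14), the latent TGF-beta activator Thbs1 (0.97 and 0.88), the surface protease Mmp14 (0.86 and 1.02) and the IGF binding protein Igfbp7 (1.12 and 1.33). Igfbp5 (1.42), Igfbp6 (1.71), Ltbp4 (1.09) and Plat (1.45) were called in ND mice alone, and the difference between diets was not past its threshold for any of these 4 (lowest edgeR adjusted p = 0.0993, Igfbp6). In HFD mice Ltbp4 (0.55, edgeR adjusted p = 0.000886) passed the test but lay short of 1.5-fold. With 1 library left out, Ltbp4 (0.51 to 0.59 over such fits) and Igfbp6 (0.15 to 0.62) were each called there in 1 fit. The HFD calls of Ltbp1 (with DESeq2, or without ARM replicate 1, at 0.77, or 2, at 1.02), Thbs1 (0.83) and Mmp14 (0.72, both without ARM replicate 2) did not hold throughout. Without ND ARM replicate 2, the ND calls of Ltbp1 (0.91), Lrrc32 (0.62), Thbs1 (0.53), Mmp14 (0.67), Igfbp5 (0.92) and Ltbp4 (0.48) were lost, those of Lrrc32 (0.94) and Ltbp4 (0.86) also without ND SM replicate 1, and those of Thbs1, Igfbp5 and Ltbp4 with DESeq2. Both filtered limma fits lost the ND calls of Ltbp1, Lrrc32, Igfbp5 and Ltbp4, and the HFD call of Ltbp1. Only Igfbp7 kept its call in both diets with every library left out and with DESeq2. The part of other cell types in the calls of this list was not tested. Thbs1 and Igfbp7 were the most abundant of those called, and Thbs1 stood at 22.1 and 27.5 FPKM in HFD ARMs against 10.5 and 14.2 in HFD SMs, and 24.8 and 37.7 in ND ARMs against 18.3 and 15.9 in ND SMs. The anchor that macrophages use for latent TGF-beta, Nrros, stood at 194 to 237 FPKM and was not called, nor was Igfbp4, at 267 to 341 FPKM.

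Targets and feedback genes of these receptors gave mixed results. Of 15 tested, 2 were called higher in HFD ARMs (4.46% of all genes), the signalling brakes Spry1 (1.20) and Spry4 (1.30), with a median of 0.06 against -0.01 over all genes. In ND ARMs 2 were higher (3.55% of all genes), Ctgf (1.72; Ccn2 in the current naming), a TGF-beta target, and Errfi1 (0.75), which restrains the EGF receptor, and Dusp6 was lower (0.129% of all genes), with a median of 0.44 against -0.02. The Ctgf call was lost with DESeq2 and without any 1 of the 4 ND libraries (1.16 to 2.60), and that of Spry4 without HFD ARM replicate 2 (1.12). Dusp6, a phosphatase induced by ERK signalling, stood at 23.5 and 23.0 FPKM in ND ARMs against 41.2 and 39.4 in ND SMs, a log2 fold change of -0.79 (edgeR adjusted p = 0.000238). In HFD mice it stood at 38.8 and 41.0 FPKM in ARMs against 50.6 and 43.1 in SMs and did not pass the test. The difference between diets was called for Errfi1 at -0.71 (edgeR adjusted p = 0.0167) and not for the other 4. The most abundant targets that were not called were Tgfbi, at 404 to 597 FPKM, and Skil. Of the 19 list genes called in HFD mice, other growth factors included, 7 were still called without HFD ARM replicate 2, 12 with DESeq2, 5 with edgeR and no filter, and 1 with limma and no filter. Of the 21 called in ND mice, 9 were still called without ND ARM replicate 2, 15 with DESeq2, all 21 with edgeR and no filter, and 0 with limma and no filter, where 1915 of all genes had an unadjusted p under 0.05. All kept their direction in these fits.

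Markers of other cells were mostly higher in ARMs. The called genes here were all higher in ARMs, where 4.46% (HFD) and 3.55% (ND) of all genes were. The 12 fat cell markers summed to 218 and 234 FPKM in HFD ARMs against 51.2 and 53.2 in HFD SMs, and to 189 and 311 in ND ARMs against 95.8 and 119 in ND SMs, with 11 of 12 called higher in HFD mice and 10 of 12 in ND mice. Car3 was the most abundant of them, and none was at 0. The 12 endothelial markers, led by Cldn5, summed to 64.5 and 61.4 FPKM in HFD ARMs against 25.9 and 17.9 in HFD SMs, with 11 of 12 called, and to 15.4 and 32.8 in ND ARMs against 12.4 and 14.6 in ND SMs, with 1 of 12 called. The 12 fibroblast and progenitor markers, led by Dcn, summed to 189 and 230 FPKM in HFD ARMs against 144 and 129 in HFD SMs, with 6 called, and to 241 and 348 in ND ARMs against 87.5 and 118 in ND SMs, with 10 called. None of these 24 endothelial and fibroblast genes was at 0. ND ARM replicate 2 was the higher of its pair in each of these sums.

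The called genes of the next 3 lists were also all higher in ARMs, where 4.46% (HFD) and 3.55% (ND) of all genes were. The 8 mesothelial markers, led by Upk3b, summed to 16.0 and 11.5 FPKM in HFD ARMs against 13.5 and 7.39 in HFD SMs, and to 17.3 and 23 in ND ARMs against 5.21 and 6.88 in ND SMs. Of 7 tested, 0 were called in HFD mice and 6 in ND mice, and none of the 8 was at 0. The 10 pericyte and smooth muscle markers, led by Rgs5, summed to 33.1 and 30.1 FPKM in HFD ARMs against 20.4 and 13.5 in HFD SMs, and to 9.56 and 14.02 in ND ARMs against 8.43 and 7.13 in ND SMs, with 4 of 9 and 2 of 8 called; Cnn1 was at 0 in some libraries. The 6 lymphatic markers, led by Pdpn, summed to 9.34 and 11.6 FPKM in HFD ARMs against 4.84 and 7.19 in HFD SMs, and to 10.3 and 11.3 in ND ARMs against 2.90 and 3.48 in ND SMs, with 3 of 6 and 4 of 6 called, and Ccl21a, Mmrn1 and Reln were at 0 in ND SM replicate 1. Vegfa, Pdgfa, Pdgfb and Csf1 are also made by cells of these kinds. The part of such cells in the differences between ARMs and SMs was not tested, for these or for the genes of the other lists.

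Markers of other blood cells did not share a direction. The 8 neutrophil markers, led by Csf3r on the mean of all libraries though not in ND SMs, summed to 48.0 and 47.5 FPKM in HFD ARMs against 39.9 and 39.7 in HFD SMs, and to 37.0 and 63.9 in ND ARMs against 82.0 and 71.3 in ND SMs. Of those tested, 0 of 4 were called in HFD mice and 1 of 6 was called lower in ND mice (0.129% of all genes). Ltf, Ly6g and Mmp8 were at 0 in some libraries. The dendritic cell list, led by Cd209a, summed to 75.7 and 77.2 FPKM in HFD ARMs against 102 and 105 in HFD SMs, and to 102 and 88.1 in ND ARMs against 109 and 109 in ND SMs, with 0 of 6 called in either diet, although Cd209a fell by 0.48 on the log2 scale in HFD ARMs (edgeR adjusted p = 0.00101), short of 1.5-fold. The list of T and NK cells, led by Cd2, stayed between 8.49 and 12.9 FPKM, that of innate lymphoid, mast and basophil cells, led by Il1rl1, between 14.02 and 20.6, and that of B cells, led by Cd79b, between 3.66 and 5.85. Of these lists, 1 of 5, 1 of 6 and 0 of 3 were called in HFD mice and 0 of 3, 0 of 5 and 0 of 3 in ND mice. The genes called were Cd4 (0.88) and Kit (1.38), both higher in HFD ARMs. Among the genes of these lists, Cd3d, Cd3g, Ncr1, Nkg7, Fcer1a, Il4, Il5, Il13 and Pax5 were at 0 in at least 1 library.

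**Figure D5:**
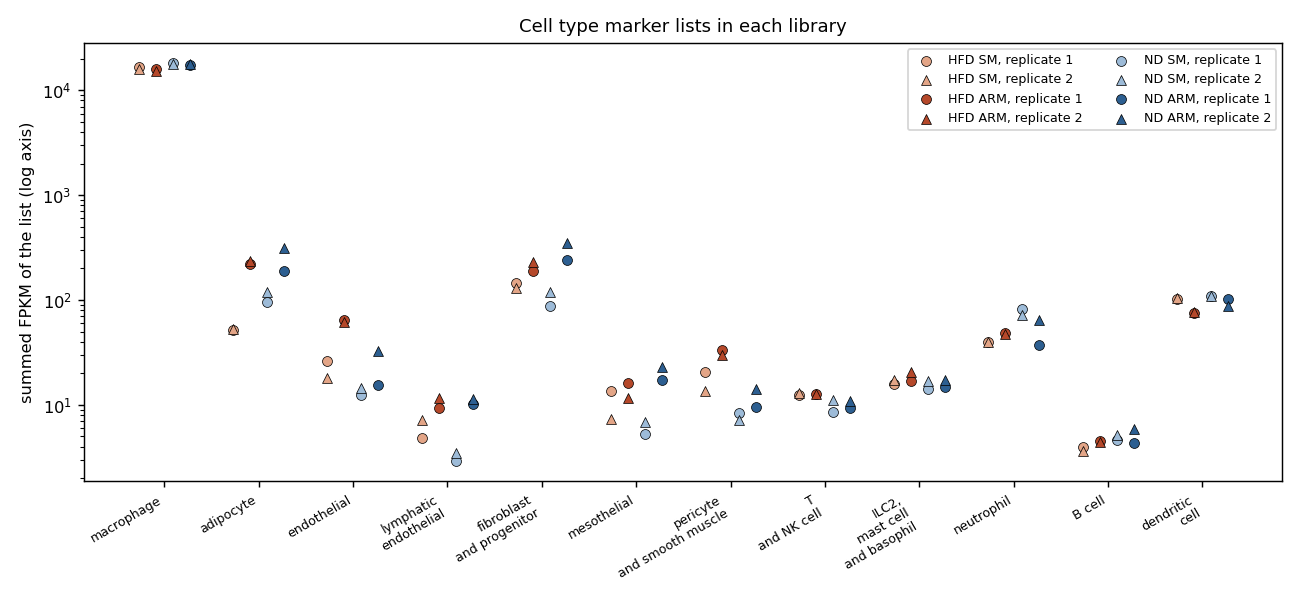
Summed FPKM of each marker list in each of the 8 libraries, on a log axis; colour marks the group and shape the replicate. Macrophage markers summed to 15260 to 18370 FPKM in every library, and fat cell markers to 51.2 to 311, higher in ARMs than in SMs of each diet.

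For each gene called in either diet, the 3 genes most alike over the 8 libraries were found from Pearson's correlation of log2 CPM centred within diet, among 12314 genes tested in both diets with a count in every library. The libraries fall into ARMs and SMs, so that any gene higher in ARMs scores well, and the values are a description. For Pdgfb and Areg 1 of the 3 is not reported here. Vegfa was most like Nr1h3 (r = 0.997), Rhoc (0.995) and Traf1 (0.992). For Pdgfb they included Cdk18 (r = 0.993) and Gpr153 (0.992). Pdgfa was most like Scn7a (r = 0.992), Arih2 (0.992) and Arl4c (0.987), those of Areg included Dot1l (0.99) and Gm34220 (0.986), and Csf1 was most like Arhgap32 (0.999), Atp2b4 (0.996) and Nrbp2 (0.994). Among the 5 called growth factors, Vegfa and Pdgfb (r = 0.977) and Csf1 and Areg (0.973) were most alike, and Pdgfa and Pdgfb least (0.834).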

How the data were processed

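ARMs and SMs of eWAT were profiled by bulk RNA-seq from 200 ng of RNA. The authors deposited estimated counts, FPKM and TPM per gene and library, in 1 table a diet; the submitters' processing notes name build mm10, and the aligner and counting program are not given in the sources used here. The tables also hold 12 columns of group averages, which were not used. Estimated counts, rounded, were fitted diet by diet with edgeR 4.0.16 (R 4.3.3): filterByExpr, TMM, quasi-likelihood test and Benjamini-Hochberg adjustment over all genes tested. The difference between diets was an interaction term over 8 libraries. Alternatives were DESeq2 1.42.0, library totals, upper-quartile scaling, other filters, 1 fit of all libraries and a replicate block. Others were limma 3.58.1 on log2(FPKM + 1) and log2(FPKM + 0.1), and each library left out. A further threshold came from the study's methods section, log2 fold change over 0.6 and p under 0.05, with p taken here as unadjusted. The study's legends for the ARM and SM genes instead use the rule taken here. Named were all 10 growth factors, list genes called in either diet, the 2 most abundant others of each list, and the 3 genes most alike, apart from those not reported here. The members and lists were chosen with earlier results of these data known. The fit was tested on simulated data. The 2 replicates of each group differed by more than sampling noise (chi-square per gene of 4.22 to 10.1). Python 3.11.15 with matplotlib 3.10.9 made the figures. Loci and promoters are from RefSeq GRCm38.p6.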

Additional observations from a re-analysis of the deposited data

Results flagged for a closer look

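Hbegf and Errfi1 are set apart here because, unlike every other gene of the growth factor lists and the 10 growth factors themselves, their ARM against SM change was called different between the diets in the interaction test over 8 libraries. The difference in log2 fold change, HFD minus ND, was -0.67 for Hbegf (SE 0.11, edgeR adjusted p = 0.0369) and -0.71 for Errfi1 (SE 0.11, edgeR adjusted p = 0.0167). Errfi1 stood at 94.1 and 99.4 FPKM in ND ARMs against 55.6 and 59.3 in ND SMs, and at 66.2 and 66.9 in HFD ARMs against 61.7 and 63.8 in HFD SMs. With 1 library left out, the difference stayed between -0.74 and -0.59 for Hbegf and between -0.74 and -0.63 for Errfi1. The Hbegf call held only when the library left out was 1 of the 2 ND ARM libraries, and the Errfi1 call only for those and for HFD SM replicate 1. DESeq2 called both.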

How the results depend on the processing

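The counts of calls depended on the setting more than the directions did. In HFD mice 634 genes were called, against 381 with DESeq2, 405 with limma on log2(FPKM + 0.1), 331 with limma on log2(FPKM + 1), 35 with the latter and no filter, 181 without the filter on low counts, 1017 at a log2 fold change over 0.6 and unadjusted p under 0.05, and 214 to 637 with a library left out. Vegfa and Pdgfb were the members called, and 0 were called by limma with no filter (7 at an unadjusted p under 0.05) or by edgeR with no filter (6), with 0 to 3 called when a library was left out. In ND mice 458 genes were called, against 266 with DESeq2, 219 with limma on log2(FPKM + 0.1), 214 with its larger offset of 1, 627 without the filter on low counts, 0 with limma and no filter (1915 at an unadjusted p under 0.05), 888 at the same unadjusted threshold, and 188 to 661 with a library left out. Of the members 4 were called, against 2 with DESeq2, 1 with either filtered limma fit, 0 with limma and no filter (6 at an unadjusted p under 0.05), and 0 to 4 with a library left out. The lone library of a group was then assumed to vary like the other group. The cause of the changes between tools was not tested.

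The adjusted p over the alternatives ran from 0.00025 to 0.154 for Vegfa and from 7.4e-05 to 0.127 for Pdgfb in HFD mice. In ND mice it ran from 3.3e-10 to 0.362 for Vegfa, 1.2e-07 to 0.326 for Csf1, 0.00011 to 0.293 for Pdgfa and 0.00039 to 0.4 for Areg. All of these log2 fold changes stayed above 0.

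Replicate numbers were also used as a block, and the correlation of replicate differences between ARMs and SMs was 0.0462 in HFD mice and 0.296 in ND mice. With 2 pairs a diet, whether the numbers pair the libraries cannot be told. The replicate block moved the calls from 634 to 673 in HFD mice, from 458 to 786 in ND mice and from 22 to 135 for the difference between diets, and changed no member's call. The difference between diets had 0 to 100 genes called with a library left out.

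Some genes that were not called changed sign. In HFD mice Nrg2 was 0.006 with 10 counts in every library, 0.024 with library totals and 0.0199 with upper-quartile scaling, and Skil was 0.005, 0.0076, 0.0075 and 0.0006 with library totals, limma with an offset of 0.1, limma with an offset of 1 (filtered or not) and upper-quartile scaling. In ND mice the limma fits gave Nrg2 -0.097 on log2(FPKM + 0.1) and -0.082 on log2(FPKM + 1), filtered or not, and Ereg was 0.026 with the block. The difference between diets for Tgfb1 was 0.011 with library totals. With a library left out, the ranges in HFD mice were -0.052 to 0.61 for Csf3, -0.033 to 0.28 for Fgf1, -0.043 to 0.064 for Igf1, -0.071 to 0.67 for Igfbp5, -0.0498 to 0.045 for Nrg2 and -0.078 to 0.036 for Skil. In ND mice they were -0.62 to 1.13 for Bmp6, -0.14 to 0.053 for Csf1r, -0.78 to 1.51 for Ereg, -0.12 to 0.026 for Grn, -0.21 to 0.064 for Igf1 and -0.092 to 0.11 for Nrg2. For the difference between diets they were -1.21 to 2.38 for Ereg, -0.057 to 0.23 for Igf1, -0.0048 to 0.27 for Pdgfb, -0.0897 to 0.067 for Tgfb1, -0.24 to 0.42 for Vegfa and -0.097 to 0.038 for Vegfb.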

Other observations

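Growth factors outside these families were also examined, 20 genes of which 15 (HFD) and 14 (ND) passed the filter. In HFD ARMs 4 were called higher (4.46% of all genes), Inhbb (log2 fold change 1.56), Angpt2 (1.32), Bmp6 (0.94) and Gdf3 (0.66), and in ND ARMs 2 were (3.55% of all genes), Fgf1 (1.38) and Gdf15 (1.06). The Bmp6 call was lost with DESeq2 and without any 1 of the 4 HFD libraries (0.79 to 1.08). That of Angpt2 was lost with DESeq2 and without either HFD ARM library (1.07 and 1.53) or HFD SM replicate 2 (1.14), that of Gdf3 with DESeq2 and without HFD ARM replicate 2 (0.54), and that of Inhbb without either HFD ARM library (1.48 and 1.65). All 4 calls were lost with no filter on low counts, in edgeR and in limma. Those of Angpt2, Bmp6 and Gdf3 were lost in 1 fit of all libraries, and that of Gdf3 in both filtered limma fits. The list's median was 0.58 and 0.50, against -0.01 and -0.02 over all genes. Gdf15, a stress-induced factor, was by far the most abundant of those called. It stood at 491 and 455 FPKM in HFD ARMs against 308 and 314 in HFD SMs, and at 170 and 203 in ND ARMs against 96.6 and 82.5 in ND SMs. The groups did not overlap in either diet, and in HFD mice its log2 fold change of 0.58 (edgeR adjusted p = 0.000499) passed the test but lay just under 1.5-fold. Gdf15 was called in HFD mice in 5 of 11 other settings (0.57 to 0.61 over all 11). It was also called there in some fits with a library left out (0.51 to 0.65 over all such fits). Of the abundant factors that were not called, Grn stood at 901 to 1036 FPKM and Gas6, a ligand of receptors for dying cells, at 323 to 530 FPKM.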
